A study of Mus musculus with 4 samples.

Results

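The 10 genes described here code for proteins that take up, bind, burn, store or spare fatty acids, and all of them are known to respond to peroxisome proliferator-activated receptors (PPARs). They are Fabp3, Cpt1a, Cpt1b, Acot1, Acot2, Pdk4, Ucp3, Plin5, Plin2 and Angptl4, picked by symbol from the 32285 genes of the expression matrices, and each of the 10 was detected in every section. They were measured by Visium spatial transcriptomics, which captures polyadenylated RNA on barcoded spots under a tissue section and counts it as unique molecular identifiers (UMIs). The 4 sections came from hearts of ICR mice, an outbred strain, that had a cooled metal probe held for 5 s against the apex of the left ventricle at postnatal day 1. Hearts were collected 1, 4, 7 and 14 days after that cryoinjury, at postnatal days 2, 5, 8 and 15, and 1 fresh-frozen section of 10 µm was sequenced per day. All 4 hearts were injured, with neither an uninjured nor a sham-operated section analysed here, so age and time since injury cannot be told apart. With 1 heart per day no difference between days can be tested, and every interval below is a 95% interval that covers counting error only.

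PPARs are nuclear receptors that bind fatty acids and, as dimers with retinoid X receptors, switch on genes at DNA elements built from repeats of the hexamer AGGTCA. In the heart, PPAR alpha and PPAR delta together with their coactivator PGC-1 alpha keep the genes of fatty acid oxidation on. The mouse heart burns mainly glucose and lactate before birth and turns to fatty acids in the weeks after it, when milk supplies fat. Several of these genes also answer to fasting, glucocorticoids or low oxygen, and Pdk4 and Angptl4 are textbook examples.

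The promoters of 8 of the 10 genes were found in RefSeq (GRCm38.p6). In the 250 bases before the RefSeq start of transcription, AGGTCA, on either strand, was present in 4 of the 8 genes (Cpt1a, Plin2, Plin5 and Ucp3). For Cpt1a those bases (chr19:3323051-3323300) lie inside the gene at the position given below. By promoter, AGGTCA was present in 4 of the 9 of these genes, against 14.0% of the 32851 promoters searched. A longer pattern, the hexamer repeated after 1 spacer base with up to 2 bases allowed to differ, overlaps it and was present in Ucp3 and Plin2, against 3.24% of promoters. The sequences below are those of Ucp3 and Plin2, the genes that hold the longer pattern, and of Pdk4, which holds neither and had the widest ratio between successive sections, 5.91-fold from day 7 to day 14. They run 5′ to 3′ along the gene and stop before the annotated first exon, with AGGTCA or its reverse complement in capitals. The Ucp3 sequence lies at chr7:100472741-100472989 on the plus strand, the Plin2 sequence at chr4:86670061-86670309 on the minus strand and the Pdk4 sequence at chr6:5496310-5496528 on the minus strand.
Ucp3: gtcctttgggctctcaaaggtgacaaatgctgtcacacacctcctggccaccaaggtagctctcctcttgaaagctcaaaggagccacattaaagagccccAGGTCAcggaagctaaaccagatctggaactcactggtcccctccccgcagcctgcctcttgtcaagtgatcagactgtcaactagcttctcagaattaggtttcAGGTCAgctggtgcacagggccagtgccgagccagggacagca
Plin2: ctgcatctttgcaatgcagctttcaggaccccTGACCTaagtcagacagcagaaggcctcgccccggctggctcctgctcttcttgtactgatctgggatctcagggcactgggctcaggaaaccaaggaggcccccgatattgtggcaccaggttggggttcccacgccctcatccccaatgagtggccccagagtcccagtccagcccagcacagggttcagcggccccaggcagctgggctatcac
Pdk4: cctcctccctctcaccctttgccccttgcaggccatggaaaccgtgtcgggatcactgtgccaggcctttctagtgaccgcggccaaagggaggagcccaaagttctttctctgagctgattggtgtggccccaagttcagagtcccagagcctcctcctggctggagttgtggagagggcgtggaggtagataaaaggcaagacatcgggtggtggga
In Ucp3 the longer match reads AGGTTTCAGGTCA and begins 51 bases before the start, with a separate AGGTCA 149 bases before it. In Plin2 it reads GGACCCCTGACCT in the gene's direction, which is the pattern's other strand, and begins 225 bases before the start. The glucocorticoid receptor pattern, AGAACA and TGTTCT with 3 bases between them and up to 2 bases allowed to differ, was found in none of the 8, against 1.56% of promoters. A match of letters is a description and not a measured binding site.

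The spots with at least 500 UMIs numbered 445 on day 1, 662 on day 4, 774 on day 7 and 1175 on day 14. Median UMIs per spot lay between 7810 and 8028 on the first 3 days and at 3770 on day 14. Mitochondrially encoded UMIs made up between 5.17% and 11.6% of a section. All 17 genes of a cardiomyocyte list (Tnnt2, Actn2, Myh6 and others) were detected in each section, and their summed level ran from 71854 UMIs per 1000000 (CPM) on day 4 to 103327 CPM on day 14, so the label heart fits its markers. Levels are given as CPM over all UMIs other than those of haemoglobin and mitochondrially encoded genes. A spot covers several cells, and fewer cells of a type and less RNA per cell cannot be told apart.

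Between days the 10 genes took 4 courses. Acot1, Acot2 and Angptl4 were highest on day 1 and below it in every later section, Acot1 by 6.74-fold on day 14. Pdk4 and Plin5, and at low counts Ucp3, were lower on days 4 and 7 and higher again on day 14, with Pdk4 5.91-fold above day 7. Plin2 and Cpt1a were 1.77-fold and 1.76-fold lower on day 7 than on day 1, and Cpt1b and Fabp3 stayed within 1.5-fold of day 1 in every section. These counts and folds describe 4 hearts.

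The make-up of the sections differed between days too. The atrial list, which holds Nppa and Myl7, was 4.70 times day 1 on day 4, 0.407 times on day 7 and 1.80 times on day 14. The fibroblast list was 1.59, 1.79 and 4.41 times day 1 on those days, the neutrophil list 0.316, 0.355 and 0.395 times and the macrophage list 0.564, 0.613 and 1.43 times. The cardiomyocyte list moved less, at 0.843, 1.03 and 1.21 times. The part of these lists in the courses of the 10 genes was not tested beyond the values per cardiomyocyte list UMI and without the most atrial cluster given below.

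Fabp3 (chr4:130308595-130315463, plus strand) codes for the heart fatty acid-binding protein, which carries fatty acids through the cytosol of muscle cells. Its level was 11363 CPM on day 1, 11463 on day 4, 13347 on day 7 and 8624 on day 14. The day 14 section was the lowest, at 0.646 times day 7 (0.638 to 0.654). Day 14 also had the highest summed level of the cardiomyocyte list.

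Cpt1a and Cpt1b code for the liver and muscle forms of carnitine palmitoyltransferase 1, the enzyme that commits long-chain fatty acids to entry into mitochondria. Cpt1b (chr15:89416405-89425863, minus strand) stood at 493 CPM on day 1, 360 on day 4, 522 on day 7 and 539 on day 14. Cpt1a (chr19:3322334-3385733, plus strand) stood at 67.3, 69.1, 38.2 and 38.6 CPM on the same days. The muscle form thus dipped on day 4 alone, while the liver form was lower in both later sections than in both earlier ones. Among UMIs of both genes, Cpt1a made up 12.0% on day 1 (exact binomial interval 10.5 to 13.6), 16.1% on day 4 (14.7 to 17.6), 6.83% on day 7 (5.97 to 7.77) and 6.68% on day 14 (5.73 to 7.73). Only the movement of this share between sections is read here, since capture may differ between transcripts.

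Acot1 and Acot2 are neighbouring genes that code for the cytosolic and the mitochondrial enzyme that split long-chain acyl-CoA into free fatty acid and coenzyme A. Acot1 (chr12:84009490-84018371, plus strand) was at 206.5 CPM on day 1 (666 UMIs), 103 on day 4, 44.9 on day 7 and 30.7 on day 14 (132 UMIs). Acot2 (chr12:83987861-83993873, plus strand) was at 291.5, 196.9, 144.2 and 120.6 CPM. Both genes were lower in each later section, and Acot1 by more. Of the UMIs of the pair, Acot1 held 41.5% on day 1 (39.0 to 43.9), 34.3% on day 4 (32.1 to 36.6), 23.7% on day 7 (21.2 to 26.4) and 20.3% on day 14 (17.3 to 23.6). The longest coding transcripts of the pair share 94.3% of 1330 aligned bases, and 23.7% of the 50-base windows of Acot1 are also found in Acot2, so reads could be split between them. None of those shared windows lies in the last 500 bases, where a 3′ assay mostly reads.

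Pdk4 (chr6:5483351-5496309, minus strand) codes for a kinase that shuts pyruvate dehydrogenase and so spares glucose when fat is burned. Its level was 182 CPM on day 1 (587 UMIs), 78.3 on day 4 (458 UMIs), 48.7 on day 7 (271 UMIs) and 287.6 on day 14 (1238 UMIs). Day 7 was the lowest section and day 14 the highest. The day 14 level was 5.91 times that of day 7 (5.18 to 6.77) and 1.58 times that of day 1 (1.43 to 1.75). Ucp3 (chr7:100472990-100486432, plus strand), an inner-membrane protein of muscle mitochondria that is induced with fat use, went through 25.7, 12.3, 8.80 and 16.0 CPM on the 4 days. It rested on 83, 72, 49 and 69 UMIs, and it reached 20 CPM on day 1 alone.

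Plin5 and Plin2 code for perilipins, proteins that coat lipid droplets: Plin5 ties the droplet to mitochondria in oxidative tissue, and Plin2 coats droplets in most cells, foamy macrophages included. Plin5 (chr17:56111601-56117596, minus strand) was at 121.6 CPM on day 1, 72.2 on day 4, 85.3 on day 7 and 172.4 on day 14. Plin2 (chr4:86648386-86670060, minus strand) was at 85.3, 60.4, 48.3 and 60.4 CPM. Plin5 was thus highest on day 14, at 2.02 times day 7 (1.80 to 2.27), and Plin2 was highest on day 1. Angptl4 (chr17:33773750-33781830, minus strand) codes for a secreted inhibitor of lipoprotein lipase, the enzyme that frees fatty acids from blood lipids. Its levels were 165.3 CPM on day 1 (533 UMIs), 83.6 on day 4, 30.9 on day 7 and 26.9 on day 14 (116 UMIs). Days 7 and 14 lay close together, with a ratio of 0.872 (0.683 to 1.11), and both lay more than 5-fold below day 1.

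**Figure D1:**
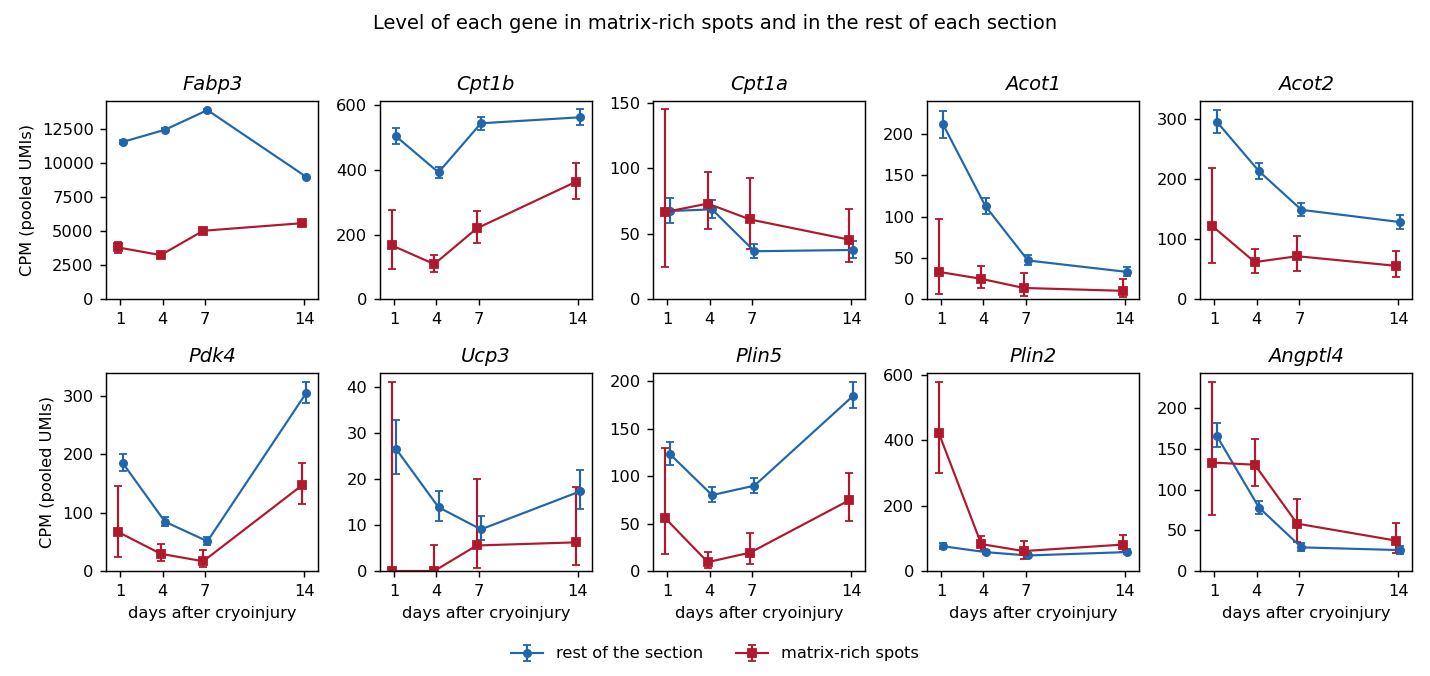
Level of each gene in CPM (vertical axis, from 0) against days after cryoinjury, for matrix-rich spots (red squares) and the rest of each section (blue circles), with 95% Poisson counting intervals. Pdk4 and Plin5 are lower on days 4 and 7 than on days 1 and 14 in both sets of spots. In the matrix-rich spots their day 1 intervals overlap those of days 4 and 7. Acot1 and Angptl4 are lower on day 14 than on day 1 in both sets, and Plin2 stands at 421.7 CPM in the day 1 matrix-rich spots.

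Differences of 2-fold or more were counted for genes with 20 CPM in either section, provided that the counting interval left out 1. Against day 1, 3 of the 10 genes were so counted as lower on day 4 (Acot1, Pdk4 and Ucp3), where 1.44% of the 7276 genes measured were, and Angptl4 lay just outside at 1.98-fold. When the most atrial cluster of each section was left out, the day 4 count was 2, Pdk4 and Angptl4. Acot1 and Ucp3 were then both at 0.525 times day 1, and the counts on days 7 and 14 did not change. On days 4, 7 and 14 the cluster left out was also the matrix-rich cluster described below, and on day 1 it was another. A day 4 cluster that was kept held the atrial list at 16786 CPM, beside 18933 CPM in the one left out. With no cluster left out, 5 of 10 were lower on day 7 (Acot1, Pdk4, Ucp3, Acot2 and Angptl4), against 2.85% of all genes. On day 14 there were 3 (Acot1, Acot2 and Angptl4), against 6.07%. None of the 10 was counted as higher than day 1 on any of these days, where 4.69%, 3.45% and 7.32% of all genes were. The median log2 ratio of the 10 genes to day 1 was -0.66 on day 4, -0.92 on day 7 and -0.59 on day 14, beside 0.17, -0.03 and -0.06 over all genes. These 3 comparisons share the day 1 section. Divided by UMIs of the cardiomyocyte list in place of all UMIs, none of the 10 passed 2-fold on day 4, against 0.962% of all genes, with Pdk4 at 0.511 times day 1.

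From day 4 to day 7, Acot1 (2.29-fold) and Angptl4 (2.71-fold) were counted as lower, 2 of the 9 genes that reached 20 CPM, against 1.51% of all genes, and none as higher, against 0.723%. With trimmed-mean scaling, which moves the all-gene median from -0.20 to 0.01, Angptl4 stood at 0.427 and Acot1 at 0.505 times day 4, so that 1 of the 9 passed, against 0.75% of all genes. From day 7 to day 14, Pdk4 and Plin5 were counted as higher, 2 of 9, against 5.04% of all genes, and none as lower, against 3.51%. Ucp3 was 1.82-fold higher (1.24 to 2.68) but under 20 CPM in both. Plin5 dropped to 1.71-fold per cardiomyocyte list UMI, and Pdk4 was 5.00-fold higher on that scale, where 3.18% of all genes were counted as higher. The median of the 10 was -0.47 from day 4 to 7 and 0.03 from day 7 to 14, beside -0.20 and -0.02 over all genes.

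The receptors themselves were sparse. Ppara gave between 2 and 5 UMIs in a whole section, Ppard between 38 and 54 and Pparg between 21 and 49. At that depth no course over days could be read for Ppara. Of 16 receptors and cofactors listed, Rxrg, which codes for retinoid X receptor gamma, was at 9.61, 13.7, 27.7 and 55.8 CPM over the 4 days. Ppargc1a, which codes for PGC-1 alpha, was at 61.1, 41.2, 44.4 and 92.2 CPM. Lpin1, which codes for a phosphatidate phosphatase that also acts with PGC-1 alpha, was at 33.5, 31.5, 44.9 and 108.5 CPM. These 3, of 10 that reached 20 CPM, were the regulators counted as higher on day 14 than on day 7, against 5.04% of all genes.

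Other genes known to respond to PPARs were followed in the same way. Of 18 such genes listed, 5 of the 11 measured above the minimum were counted as higher on day 14 than on day 7 and none as lower. Over all genes the shares were 5.04% and 3.51%. Among the 5 were Gpd1 at 2.03-fold and Slc25a42 at 2.22-fold. Genes of triglyceride storage and release gave 5 of 13 higher on day 14 than on day 7 and none lower, beside the same all-gene shares. Among them Dgat2, which makes triglyceride, was 3.42-fold higher and Fitm2, which helps form droplets, 3.40-fold. Pnpla2, which codes for the lipase that opens the store, was 2.25-fold higher. Lpl, the target of Angptl4, was at 759, 520, 559 and 1601 CPM, lowest on days 4 and 7 like Pdk4.

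Of 21 enzymes of mitochondrial fatty acid oxidation, none was counted as 2-fold higher or lower between any of the sections compared. Their median log2 ratio to day 1 was -0.45 on day 4, -0.42 on day 7 and -0.10 on day 14, each nearer to 0 than that of the 10 genes. From day 7 to day 14 it was 0.45, with 19 of the 21 intervals above 1, where the median of the 10 genes was 0.03. Of 10 genes of the pyruvate dehydrogenase complex and pyruvate entry, none of the 8 measured passed either. In the Pdk family the kinases differed in course: Pdk1, a target of hypoxia-inducible factor, was at 153 CPM on day 1 and 62.3 on day 14, 2.45-fold lower, where Pdk4 was higher.

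Genes known to be induced by glucocorticoids had the widest swing of the lists examined. Of 13 measured, 10 were counted as lower on day 4 than on day 1, against 1.44% of all genes, with a median log2 ratio of -1.70. From day 7 to day 14, 9 of 12 were counted as higher and none lower, against 5.04% and 3.51% of all genes. Their median was 2.17, and Tsc22d3 at 4.65-fold and Cebpd at 5.56-fold were among the 9. Tsc22d3 was at 154 CPM on day 1, 93.2 on day 4, 92.3 on day 7 and 429 on day 14. Their part in the course of Pdk4 was not tested. The hypoxia-responsive list, to which Angptl4 is often assigned, had medians of -0.39, -0.57 and 0.06 against day 1, and Angptl4 on day 14 was 6.13-fold below day 1.

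**Figure D2:**
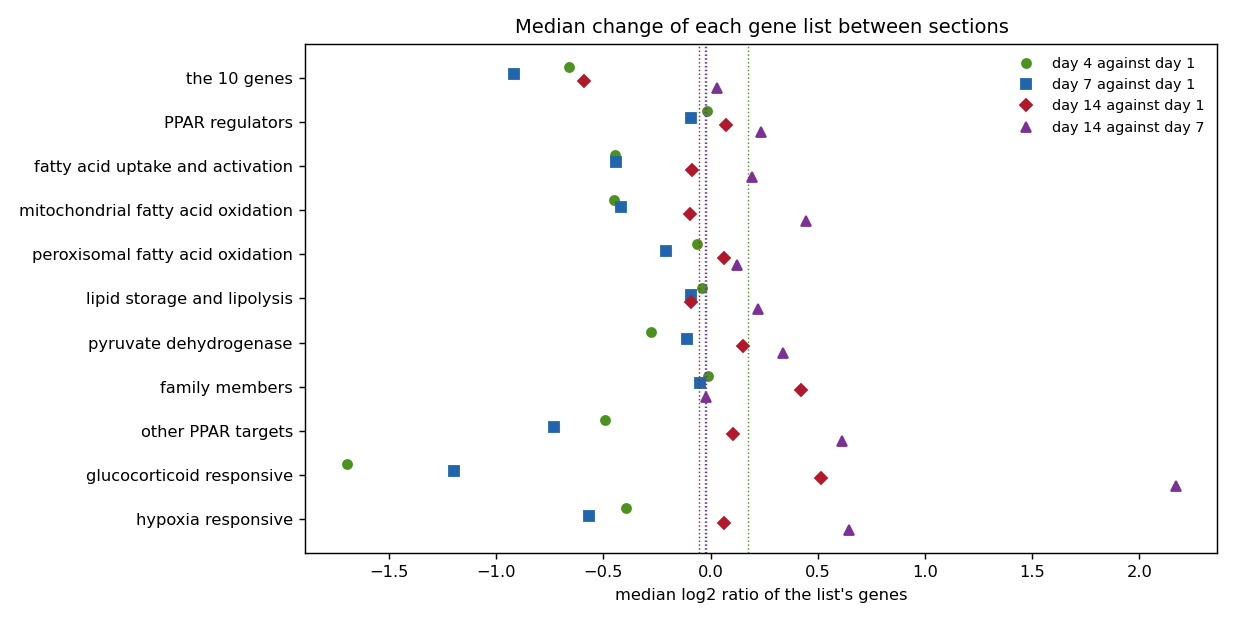
Median log2 ratio of each gene list (horizontal axis) for days 4, 7 and 14 against day 1 and for day 14 against day 7, with dotted lines at the median over all genes in the same colours. The 10 genes sit left of the all-gene line in the comparisons with day 1, the glucocorticoid list has the lowest and highest medians, and mitochondrial fatty acid oxidation lies between -0.45 and 0.45.

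Matrix-rich spots were taken as the cluster of spots, in each section, with the largest share of UMIs from 20 extracellular matrix genes, and neither the 10 genes nor the related lists entered the clustering. They numbered 16 spots on day 1, 52 on day 4, 54 on day 7 and 126 on day 14. They were not alike between days. The day 1 cluster was led by Gpnmb, Spp1 and Ccl2, genes of macrophages at injury, and its macrophage list was 23.7 times that of the rest. Its neutrophil list was 7.02 times the rest and its fibroblast list 1.03 times. The macrophage list was above the rest on days 4, 7 and 14 too, at 6.92, 4.79 and 3.55 times. The fibroblast list was at 3.53, 4.04 and 2.84 times on those days. On days 4, 7 and 14 the atrial list was 3.47, 11.4 and 5.10 times the rest, on day 7 the skeletal muscle list was 8.81 times and on day 14 the adipocyte list 4.34 times. Of the 13 adipocyte genes, 9 had UMIs in the day 14 cluster, with Cfd at 101.4 CPM beside 1.31 in the rest and Adipoq at 10.4 beside 0.26. On day 7, Car3 was at 66.4 CPM beside 0 UMIs in the rest. It gave 24 of the 44 adipocyte list UMIs of the day 7 cluster, where Plin1 and Cfd were at 0. Since the skeletal muscle list was raised in that cluster too, which cells held Car3 was not tested. Ucp1, Lep and Elovl3 were at 0 in the clusters of all 4 days. The part of adipocytes in the ratios of days 7 and 14 was not tested beyond leaving out spots with an adipocyte or skeletal muscle list UMI. That step dropped 421 of 774 spots on day 7 and 432 of 1175 on day 14. In the matrix-rich clusters it dropped 35 of 54 and 53 of 126. Cidea alone gave 303 of the 338 adipocyte list UMIs on day 7 and 185 of 271 on day 14, so the step does not single out adipocytes. The cardiomyocyte list stood at 0.458, 0.418, 0.410 and 0.631 times the rest on the 4 days, and its part in the ratios below was not tested beyond the values given per cardiomyocyte list UMI.

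In these spots 6 of the 10 genes, Acot1, Acot2, Pdk4, Plin5, Cpt1b and Fabp3, had ratios to the rest below 1 in each section. Their intervals lay below 1 as well, other than that of Plin5 on day 1 (0.145 to 1.06). Ucp3 was too sparse to place, with an interval below 1 on day 4 alone. Plin2 had ratios above 1 in each section, with intervals above 1 on days 1 and 4, and Angptl4 and Cpt1a had ratios from 0.801 to 2.004. Here a difference was counted with 20 UMIs in the section, a 2-fold ratio and an interval without 1.

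On day 1, 5 of the 10 genes (Acot1, Acot2, Pdk4, Cpt1b and Fabp3) were counted as lower in the matrix-rich spots, against 3.82% of all genes, and Plin2 as higher, against 9.55%. On day 4, 7 were lower (those 5, Plin5 and Ucp3), against 7.78%, and none higher, against 11%. On day 7, 6 were lower (those 7 without Ucp3), against 5.42%, and Angptl4 was higher, against 11.7%. On day 14, 4 were lower (Acot1, Acot2, Pdk4 and Plin5), against 1.98%, and none higher, against 11.2%. The median log2 ratio of the 10 was -1.22, -1.68, -1.18 and -0.87 on the 4 days, beside 0.39, 0.06, 0.20 and 0.21 over all genes. Per cardiomyocyte list UMI, the counts lower became 0, 1, 0 and 0, against 0.12%, 0.509%, 0.0536% and 0.152% of all genes. The counts higher became 1, 3, 3 and 2 of 10, against 29.7%, 60.5%, 57% and 36% of all genes, so none of the 4 shares was above that of all genes. The 21 enzymes of mitochondrial fatty acid oxidation were also low in these spots, with 16, 20, 18 and 4 counted as lower on the 4 days and medians of -1.56, -1.66, -1.27 and -0.85.

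Plin2 in the day 1 matrix-rich spots was at 421.7 CPM (298.4 to 578.8, from 38 UMIs), beside 75.6 CPM in the rest (237 UMIs). That is 5.58 times the rest (3.85 to 7.88), and 12.2 times per cardiomyocyte list UMI. On days 4, 7 and 14 the matrix-rich spots had 82.3, 60.9 and 80.7 CPM and the rest 57.7, 47.4 and 57.8 CPM. Those later ratios were 1.43 (1.05 to 1.92), 1.28 (0.790 to 1.99) and 1.40 (0.967 to 1.97), so the large excess was seen in the day 1 cluster. Its 16 spots gave 43 UMIs of Plin2 and Plin5 together, 88.4% of them Plin2 (74.9 to 96.1), beside 38.0% in the rest. When the highest 10% of day 1 spots by matrix share were taken in place of the cluster, Plin2 was 3.59 times the rest.

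Angptl4 was at 133.2, 130.5, 58.1 and 37.3 CPM in the matrix-rich spots over the 4 days and at 166.2, 77.8, 29.0 and 25.6 CPM in the rest. Its ratio was 0.801 on day 1 (0.411 to 1.41), 1.68 on day 4 (1.31 to 2.12), 2.004 on day 7 (1.21 to 3.18) and 1.45 on day 14 (0.827 to 2.42). The gene was therefore lower on days 7 and 14 than on day 1 in both sets of spots. Its day 7 excess passed 2-fold by a margin that 2 other ways of choosing the spots did not keep, with ratios of 1.97 and 1.60. Cpt1a was at 66.6, 73.0, 60.9 and 45.5 CPM in the matrix-rich spots and 67.3, 68.6, 36.7 and 37.7 CPM in the rest. Its interval lay above 1 on day 7 alone, at 1.66 (1.02 to 2.59). Of the UMIs of both Cpt1 genes on day 4, Cpt1a held 40.2% in the matrix-rich spots (31.2 to 49.6) and 14.9% in the rest (13.5 to 16.4).

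The 6 low genes were so to different degrees. Plin5 was at 9.32 CPM in the day 4 matrix-rich spots and 80.0 CPM in the rest, a ratio of 0.117 (0.0425 to 0.256), the lowest of any of the 10 with a UMI there. Per cardiomyocyte list UMI it was still 0.279 times the rest (0.102 to 0.612), the 1 gene counted as lower on that scale. Fabp3 was at 3818, 3257, 5048 and 5606 CPM in the matrix-rich spots and 11580, 12478, 13923 and 9005 CPM in the rest, and its ratio on day 14, 0.623, was near that of the cardiomyocyte list. Cpt1b had ratios of 0.331, 0.278, 0.403 and 0.645. Per cardiomyocyte list UMI, Cpt1b and Fabp3 lay between 0.624 and 1.02 times the rest in every section. On that scale the interval of Fabp3 still lay below 1 on days 1, 4 and 7, with 0.624 on day 4 (0.598 to 0.652). That of Cpt1b lay below 1 on day 4 alone, at 0.664 (0.516 to 0.843).

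Acot1 had ratios of 0.157, 0.221, 0.294 and 0.311 on the 4 days, from 3, 16, 5 and 5 UMIs in the matrix-rich spots. Acot2 had ratios of 0.412, 0.291, 0.482 and 0.434, and on day 7 its direction turned per cardiomyocyte list UMI, at 1.18 (0.763 to 1.74). Pdk4 stood at 66.6, 29.5, 16.6 and 147 CPM in the matrix-rich spots and at 185.4, 84.4, 50.9 and 305.4 CPM in the rest. Both sets of spots were lowest on day 7 and highest on day 14. The matrix-rich values rested on 6, 19, 6 and 71 UMIs, so their order was not fully resolved. There the interval of day 7 (6.09 to 36.1) overlapped that of day 4 (17.8 to 46.1). That of day 14 (114.8 to 185.4) overlapped that of day 1 (24.4 to 144.9). Ucp3 gave 0 UMIs in the matrix-rich spots on days 1 and 4. On day 1 the interval of the ratio reached 1.58, so no difference was detectable at this depth, and on day 4 it reached 0.425. On days 7 and 14 the gene rested on 2 and 3 UMIs there, with ratios of 0.613 (0.0722 to 2.34) and 0.360 (0.0723 to 1.10).

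**Figure D3:**
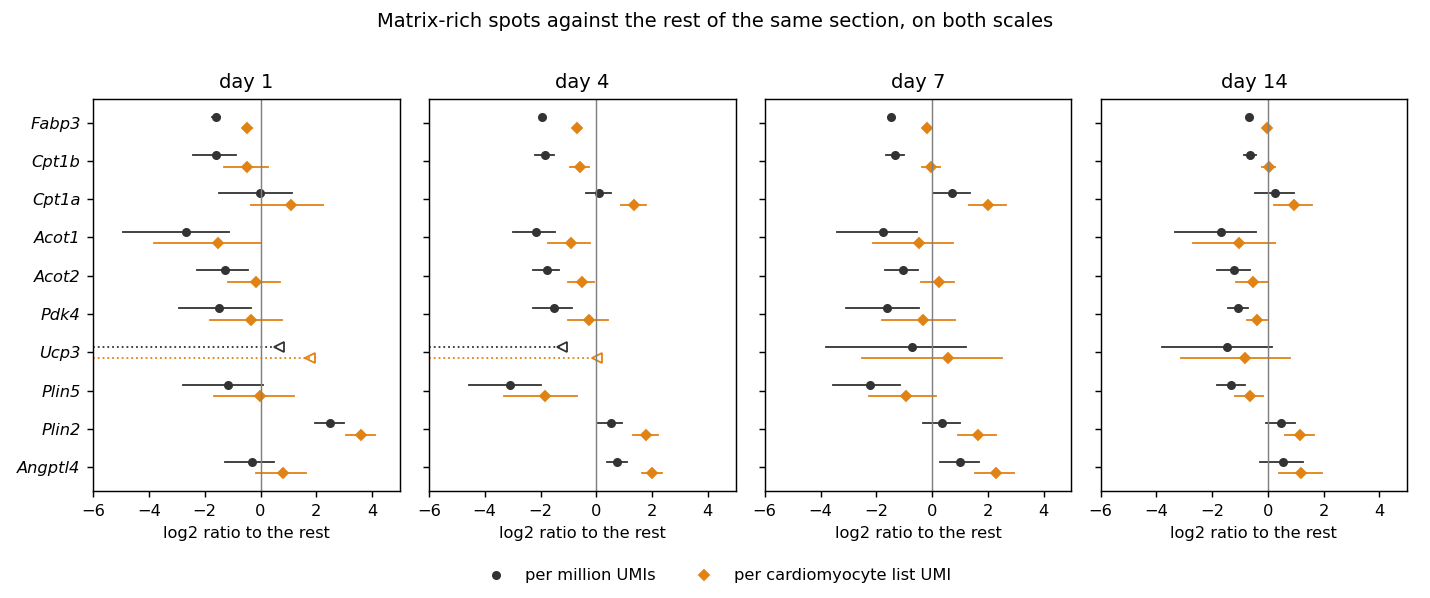
Log2 ratio of matrix-rich spots to the rest of the same section for each gene and day, as CPM (black circles) and per cardiomyocyte list UMI (orange diamonds), with 95% counting intervals. Open arrows with dotted lines mark 0 UMIs and the interval's upper end. Plin2 lies above 0 on both scales in every section, and the ratios of the 6 low genes are higher on the second scale than on the first.

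Levels were also compared across the 28 clusters of 10 or more spots, as a description of clusters that share libraries and depth. The matrix-rich clusters are among the 28, so the values below are not independent of the ratios above. Correlations are Pearson's r of log2(CPM + 10) with each section's mean removed. Cpt1b and Fabp3 had r = 0.98, Acot1 and Fabp3 0.93 and Plin5 and Fabp3 0.92. Plin2 ran against these genes, with r = -0.72 to Cpt1b and -0.67 to Fabp3. Each of these genes had an r of similar size to the cardiomyocyte list itself. That r was 0.98 for Fabp3, 0.96 for Cpt1b, 0.92 for Acot1, 0.91 for Plin5 and -0.66 for Plin2. The part of cardiomyocyte content in the correlations between the genes was not tested. Angptl4 ran with none of the other 9 within sections, its highest r being 0.06, to Cpt1a. Over all clusters without removing section means it had r = 0.69 to Acot1 and 0.71 to Cpt1a, genes that also were lower on days 7 and 14.

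The genes whose level over the 28 clusters, section means kept, was most like that of each of the 10 differed from gene to gene. For Pdk4 they were Rbp7 (r = 0.94), a retinol-binding protein, and Dgat2 (0.94). For Plin5 they were Cd36 (0.96), the fatty acid transporter of the cell surface, and Ech1 (0.96), an enzyme of fatty acid oxidation. Acot1 was most like Dbi (0.91), the acyl-CoA-binding protein. Cpt1b was most like Eno3 (0.98), the muscle enolase, and Fabp3 like Cox7c (0.96) and Cycs (0.96), both of the respiratory chain. Plin2 was most like Spp1 (0.91), which codes for osteopontin, and Pf4 (0.87), a chemokine, both expressed by macrophages, and next like Atp6v0c (0.87). Without the 4 matrix-rich clusters these values were 0.74, 0.61 and 0.49.

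**Figure D4:**
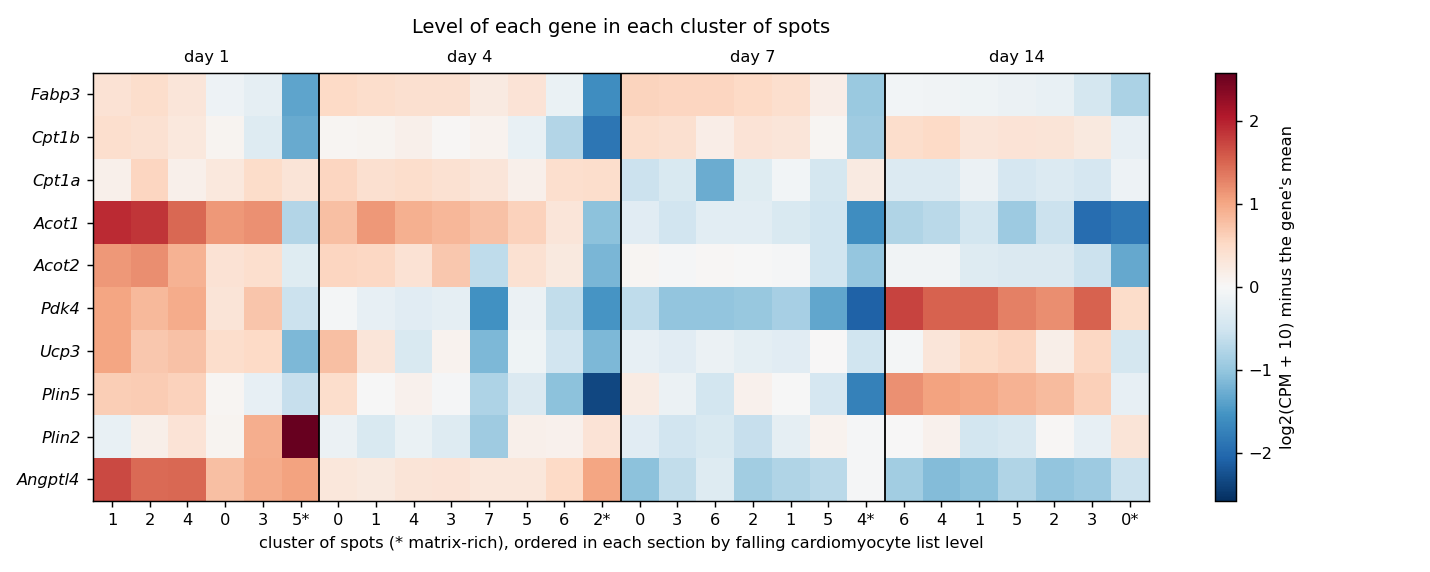
Level of each gene in each of 28 clusters of spots, as log2(CPM + 10) minus the gene's mean (colour), with clusters in each section ordered by falling cardiomyocyte list level and asterisks on the matrix-rich clusters. Fabp3, Cpt1b and Plin5 are lowest in the matrix-rich cluster of each section, Plin2 is highest in that of day 1, and Pdk4 is high through the clusters of day 14.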

How the data were processed

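The deposited values are raw UMI counts per gene and spot, 1 matrix per section; per the file headers they come from Space Ranger 1.3.0. The submitters' processing notes also name mm10 and Seurat 4.1.1, without their roles. Spots with at least 500 UMIs were pooled per section. Totals left out haemoglobin and mitochondrially encoded genes. Ratios carry exact conditional binomial (Clopper-Pearson) intervals, levels exact Poisson intervals, both at 95%. UMIs correct for amplification, and the intervals hold no variation between hearts. Clusters came from scanpy 1.11.5 (Leiden, resolution 0.8, 15 principal components, 15 neighbours, 2000 variable genes), leaving out the 10 genes and the related lists. Trimmed-mean scaling used edgeR 4.0.16. The ratio and call were tested on simulated data. The 10 genes, the lists and the rules were chosen with earlier results of these data known. All 10 genes are named in each comparison. From each related list, genes past 2-fold with the most UMIs are named, up to 4 a comparison. For each of the 10, the 3 genes most alike over clusters (at least 400 UMIs) were searched. Ppara, Ppard and Pparg are named outside that rule, as the receptors. Alignments used Biopython 1.88, gene positions GENCODE vM21, and promoters RefSeq GRCm38.p6. Spot positions were not used here.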

Additional observations from a re-analysis of the deposited data

How the results depend on the processing

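The counts of genes at least 2-fold different depended on the scaling more than on the choice of spots. Per cardiomyocyte list UMI, the count lower on day 4 than day 1 went from 3 to 0 and the count higher on day 14 than day 7 from 2 to 1. The count lower on day 14 than day 1 rose from 3 to 4, with Cpt1a at 0.473. That lower on day 7 than day 4 rose from 2 to 3, with Cpt1a at 0.455. On the same scale, the matrix-rich counts lower went from 5, 7, 6 and 4 to 0, 1, 0 and 0, the counts higher on days 4, 7 and 14 from 0, 1 and 0 to 3, 3 and 2, and Acot2 on day 7 reversed to 1.18. With the mean of CPM over spots, both first-named counts were 1. With trimmed-mean scaling, the count lower on day 7 than day 4 went from 2 to 1 and that lower on day 7 than day 1 from 5 to 4. The count lower on day 4 than day 1 rose from 3 to 4 with that scaling. It was also 4 without spots holding a skeletal muscle or adipocyte list UMI. The day 7 matrix-rich count higher was 0 with joint clustering of the sections and with the highest 10% of spots. The day 14 count lower was 0 at Leiden resolution 0.5, and the count higher was 1 without spots holding a skeletal muscle or adipocyte list UMI. Apart from the changes of scale, the cause was not tested. All 99 recomputed medians stayed within the spread of the 10 genes, and per cardiomyocyte list UMI the day 7 matrix-rich median (0.10) and that from day 7 to day 14 (-0.21) had the other sign. Of 966 recomputed single-gene ratios, 838 stayed within their counting interval and 127 moved out of it, and the reversal of Acot2 was the 1 change of direction in a ratio counted as 2-fold. Ratios of any size fell on the other side of 1 from the reported value in 22 of the 966, 10 of them per cardiomyocyte list UMI. In 6 of the 22 the reported interval had left out 1: Acot2, Cpt1b in the day 14 matrix-rich spots (1.02) and on day 14 against day 1 (0.902), Fabp3 (0.957) and Plin5 (0.971) from day 4 to 7, all per cardiomyocyte list UMI, and Plin5 from day 4 to 7 (0.967) without spots holding a skeletal muscle or adipocyte list UMI.

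Over all genes, higher against lower calls were 341 and 105 on day 4 against day 1, 224 and 154 with trimmed-mean scaling and 651 and 70 per cardiomyocyte list UMI. On day 7 against day 1 they were 237 and 196, and 203 and 257 with all genes in the total. On day 14 against day 1 they were 511 and 424, and 328 and 813 per cardiomyocyte list UMI. From day 4 to 7 they were 52 and 109, 41 and 171 with all genes in the total, 77 and 54 with trimmed-mean scaling and 31 and 365 per cardiomyocyte list UMI. From day 7 to 14 they were 346 and 241, and 218 and 452 per cardiomyocyte list UMI. In matrix-rich spots they were 955 and 382, 1275 and 902, 1314 and 607, and 1181 and 209 over the 4 days, and 2968 and 12, 7017 and 59, 6382 and 6, and 3795 and 16 per cardiomyocyte list UMI.

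No paired analysis was possible because each day has 1 section. No section was left out, for the same reason. The day 1 matrix-rich cluster holds 16 spots and 90111 UMIs, so ratios there rest on as few as 3 UMIs, and Ppara is below what these sections can follow. Whether other hearts of the same day would give these values was not measured.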
